A study of Mus musculus with 10 samples.

Results

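Of the 10 genes chosen for the balance of matrix proteases and their inhibitors, 9 were matched by symbol among the 15900 genes of the table of CAGE values. They were the inhibitors *Timp1*, *Timp2*, *Timp3* and *Timp4*, the matrix metalloproteinases *Mmp2* and *Mmp14*, and the ADAMTS proteases *Adamts1*, *Adamts4* and *Adamts9*. *Mmp9* was not analysed here. The list was drawn up with results of the same mice in view, among them the increase of *Timp1* after status epilepticus (SE), so counts over the 9 genes are descriptions and support nothing about the family. All 9 genes passed the filter on low values.

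The 5 groups held 2 ICR mice each, aged 9 to 10 weeks, and each library was made from whole hippocampus. Pre-SE mice are labelled untreated, and the study's methods give control mice saline in place of pilocarpine (PILO), a muscarinic agonist that induces seizures. The mice of the other 4 groups received methyl scopolamine and PILO, reached SE (defined by 5 generalized convulsive seizures) and were given diazepam to end it. SE 6 h and SE 2 days mice were sampled at these times without further treatment, whereas SE + LEV 6 h and SE + LEV 2 days mice had also received the antiepileptic drug levetiracetam (LEV) orally, 1 dose and 5 doses respectively. Diazepam was thus shared by all SE groups, and the dissection was not split by cell type.

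The extracellular matrix of the brain includes the basement membrane of vessels and the perineuronal nets around neurons, which are rich in the proteoglycan aggrecan. Matrix metalloproteinases (MMPs) cut collagens, laminins and other matrix proteins, and several ADAMTS proteases cut proteoglycans such as aggrecan, brevican and versican. Both are zinc enzymes made as inactive proforms. Tissue inhibitors of metalloproteinases (TIMPs) bind the active sites of MMPs, and the product of *Timp3* is the TIMP known to inhibit ADAMTS proteases. After seizures, this system is known for its part in the remodelling of nets and synapses and in the opening of the blood-brain barrier.

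Cap analysis of gene expression (CAGE) counts the capped starts of transcripts, so 1 tag stands for 1 captured RNA end, whatever the length of the gene, and levels were compared between genes without division by length. The unit is CPM, tags scaled to the same total of tags on the listed genes, and these totals ran from 10540698 to 51710969 tags. A total of 3 tags, taken as the limit of detection, was worth 0.058 to 0.285 CPM. The logFC is the difference of group means of log2(CPM + 0.1), which understates the change of genes with low CPM. It was tested with limma in 1 fit of all 10 libraries across the 15851 genes that reached 0.1 CPM in 2 or more libraries, and genes with a Benjamini-Hochberg adjusted p of at most 0.05 were called. In the values that follow, replicate 1 is given before replicate 2, and a time with no mention of LEV stands for mice with SE and no LEV. Nothing in the labels says more of the mice than their replicate number, so p-values measure the spread between these samples.

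The libraries differed widely in tags of choroid plexus, a tissue that borders the hippocampus. The summed level of the 4 of 6 choroid plexus markers in the table, mostly *Ttr*, was 12.2 and 1700 CPM in the 2 pre-SE mice, 8.37 and 3990 CPM at 6 h, and 864 and 38.9 CPM at 6 h with LEV. It was 66.2 and 22.7 CPM at 2 days and 1500 and 25.9 CPM at 2 days with LEV. In 4 of 10 libraries it was thus over 500 CPM, with 1 such mouse in each group except SE 2 days. All 8 neuron markers, all 6 astrocyte markers and all 5 oligodendrocyte markers were detected in every group, and the tissue is labelled hippocampus. In bulk tissue, fewer cells of a type and less RNA per cell cannot be told apart.

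*Timp1*, the inducible member of the TIMPs, was nearly silent before SE and had the widest range of the 9 genes, 1360-fold between its lowest and highest mouse. It lies on chromosome X of mm9 at positions 20447292 to 20451861 on the plus strand, inside the synapsin gene *Syn1*, which runs the other way. The stretch of 150 bases before its annotated start was taken from the promoter table of RefSeq (GRCm38.p6, chrX:20870016-20870165, plus strand) and is shown because no other member changed as much. A further stretch of 30 bases lies from 16 to 45 bases downstream of that start (chrX:20870181-20870210, plus strand), and its capitals mark TGAGTAA, a sequence related to the binding motif of AP-1, the Fos and Jun factors that neuronal activity induces.

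Timp1 before the start: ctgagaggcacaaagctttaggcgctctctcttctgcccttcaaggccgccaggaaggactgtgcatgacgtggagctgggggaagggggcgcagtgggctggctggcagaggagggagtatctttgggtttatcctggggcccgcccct

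Timp1 after the start: cggtgggtggaTGAGTAAtgcgtccaggaa

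The letters TGAGTAA were chosen after the sequences had been seen, and 2.68% of the 32851 promoter windows in the table held them on either strand. The AP-1 motif TGANTCA was in 7.81% of the windows and in the window of none of the 7 member genes that the table covers. The CRE motif TGACGTCA (1.79% of windows), the STAT motif TTCNNNGAA (8.3%) and an NF-kB motif (1.63%) were also in none of these 7. Each window holds 250 bases before and 50 after the start, and a match is a description of letters, not of binding.

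Before SE *Timp1* stood at 0.17 and 0.19 CPM, from 5 and 10 tags. It was at 14.8 and 13.8 CPM at 6 h and at 59.6 and 232 CPM at 2 days. With LEV it was at 1.93 and 3.89 CPM at 6 h and at 181 and 25.01 CPM at 2 days. Every mouse after SE lay above both pre-SE mice, the LEV-treated mice at 6 h lay below both SE 6 h mice, and at 2 days the treated and untreated mice overlapped.

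*Timp1* rose at 6 h, by 5.69 as logFC (standard error 0.84, limma adjusted p = 0.0071), a 79.5-fold ratio of mean CPM. At 2 days it was higher than before SE by 8.72 as logFC (standard error 0.84, limma adjusted p = 0.00092), an 810-fold ratio of mean CPM. Both SE 2 days mice also exceeded both SE 6 h mice, but that logFC of 3.03 (standard error 0.84) was not called (limma adjusted p = 0.077). The call at 6 h was kept in 17 of 21 alternatives. It ended with a pseudocount of 1, where the logFC was 3.70 and the limma adjusted p 0.053. It also ended without either SE 6 h mouse and without the 4 libraries over 500 CPM of choroid plexus markers. With 1 mouse left out, the logFC at 6 h ran from 5.63 to 5.74. The call at 2 days held under all 21 alternatives.

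The mean *Timp1* level of SE + LEV 6 h mice was 20.3% of that of SE 6 h mice, which is a logFC of -2.34 (standard error 0.84) and was not called (unadjusted p = 0.019, limma adjusted p = 0.90). Against pre-SE mice the treated mice at 6 h had a logFC of 3.35 that was not called either (limma adjusted p = 0.18). At 2 days LEV-treated mice differed from SE 2 days mice by -0.80 as logFC (standard error 0.84, limma adjusted p = 1.0), and leaving out 1 mouse moved this from -2.23 to 0.62. They remained above pre-SE mice, with a logFC of 7.91 (limma adjusted p = 0.0020), and this call ended when only these groups were fitted (limma adjusted p = 0.059) and without the 4 libraries over 500 CPM of choroid plexus markers (limma adjusted p = 0.27). The 2 LEV-treated mice at 2 days differed from each other by a factor of 7.25, more than in any other group for this gene. The treated mouse with 181 CPM was also the one with 1500 CPM of choroid plexus markers, and its part in this value was not tested.

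**Figure D1:**
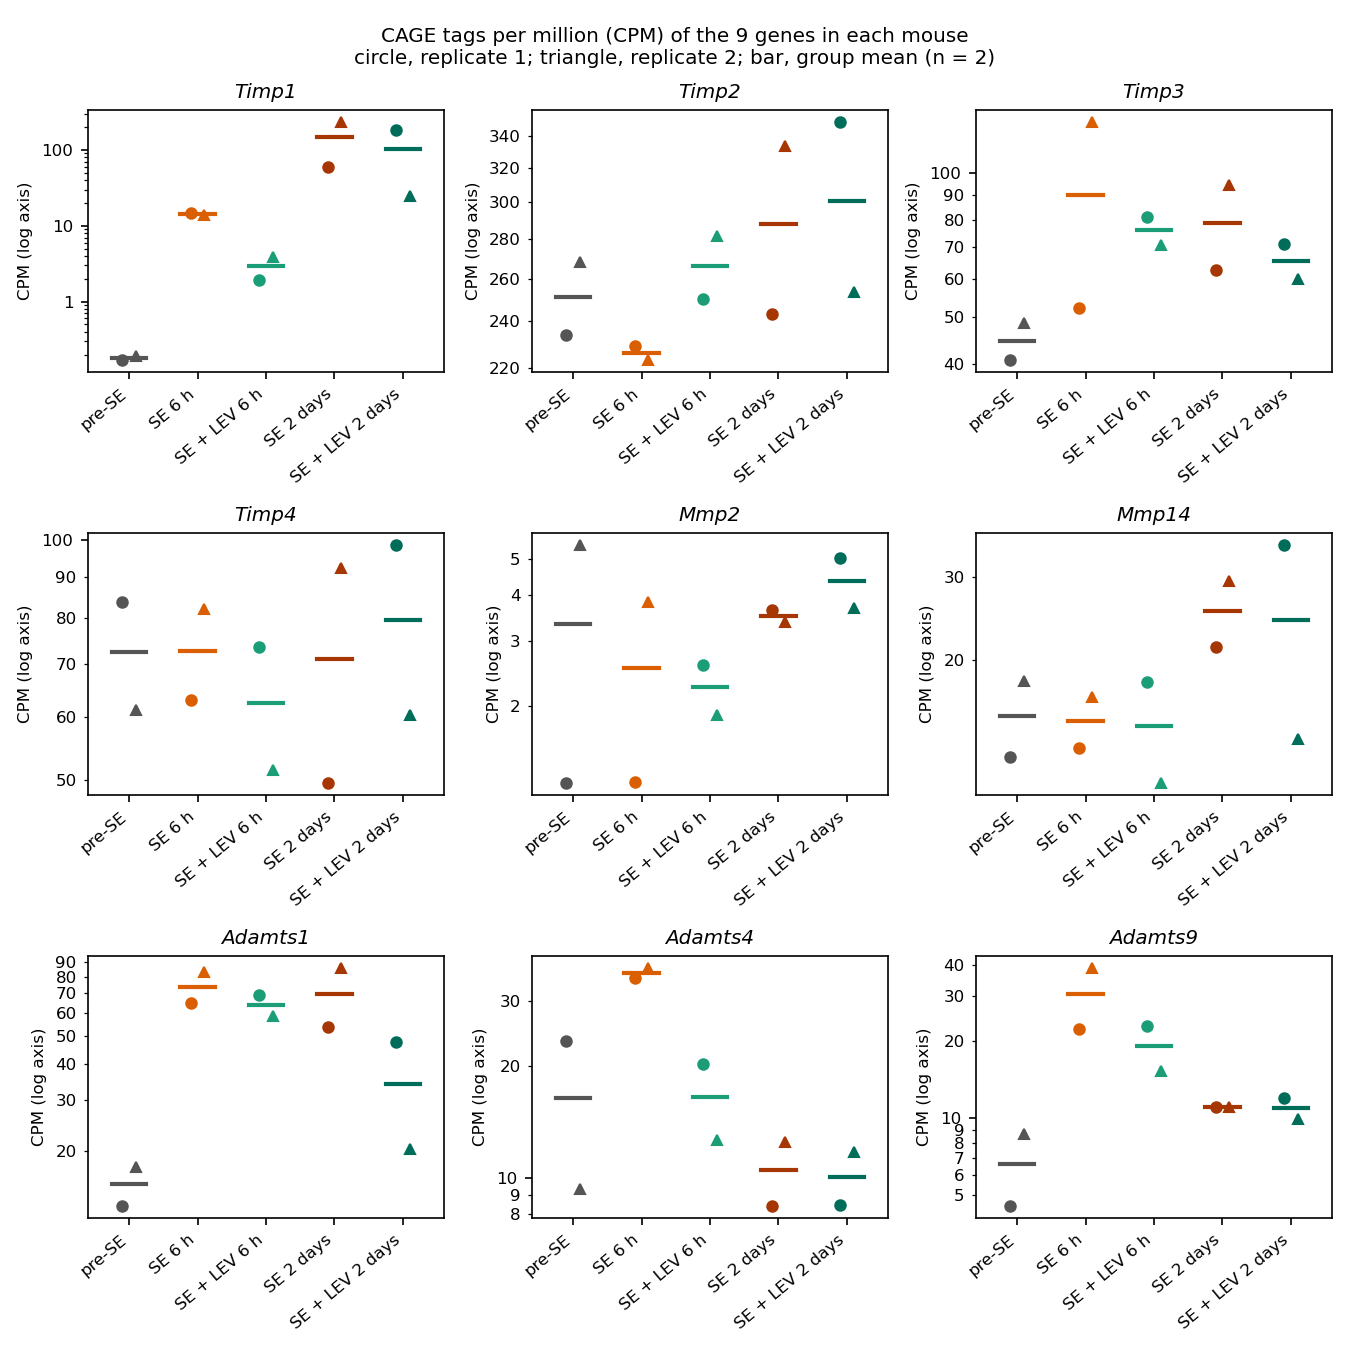
Level of each of the 9 genes in each mouse, in CPM on a log axis that differs between panels, with circles for replicate 1, triangles for replicate 2 and bars for the mean of the 2 mice. *Timp1* runs from 0.17 to 232 CPM, *Adamts1* and *Adamts9* are lowest in pre-SE mice, and *Timp2* stays between 223 and 349 CPM.

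*Timp2* was the most abundant of the 9 genes, at a mean of 266 CPM over the 10 libraries, above 95.9% of listed genes. Its protein inhibits MMPs and also serves, bound to the membrane protease that *Mmp14* encodes, in the activation of the protease from *Mmp2*. It was at 234 and 268 CPM before SE, 229 and 223 CPM at 6 h, 250 and 281 CPM at 6 h with LEV, 243 and 333 CPM at 2 days, and 349 and 253 CPM at 2 days with LEV. The whole range was 1.56-fold, and the logFC against pre-SE was -0.15 (standard error 0.24, limma adjusted p = 0.79) at 6 h and 0.18 (standard error 0.24, limma adjusted p = 0.74) at 2 days. *Timp2* (mm9 chromosome 11, 118162383 to 118217054, minus strand) overlaps *BC100451* on its own strand, so tags of these genes could have been shared.

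*Timp3*, whose protein binds to the matrix and is the TIMP known to inhibit ADAMTS proteases, was at 40.8 and 48.7 CPM before SE. It was at 52.4 and 128 CPM at 6 h, 81.2 and 70.7 CPM at 6 h with LEV, 62.8 and 94.6 CPM at 2 days, and 71.1 and 60.1 CPM at 2 days with LEV. Both mice of each group after SE were above both pre-SE mice, although no difference was called. At 6 h the logFC stood at 0.88 (standard error 0.38, limma adjusted p = 0.26), and it was 0.79 (standard error 0.38, limma adjusted p = 0.28) at 2 days. The highest value, 128 CPM, came from the SE 6 h library with 3990 CPM of choroid plexus markers. With the 4 libraries over 500 CPM of those markers left out, the logFC was 0.36 (limma adjusted p = 0.79) at 6 h and 0.92 (limma adjusted p = 0.22) at 2 days.

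*Timp4*, a TIMP found mostly in heart and brain, was at 83.7 and 61.2 CPM before SE and between 49.6 and 98.6 CPM in the other 8 mice. Its groups overlapped in every comparison, with a logFC against pre-SE of 0.01 (standard error 0.36, limma adjusted p = 1.0) at 6 h and -0.08 (standard error 0.36, limma adjusted p = 0.94) at 2 days.

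*Timp1*, *Timp3* and *Timp4* lie inside the synapsin genes *Syn1*, *Syn3* and *Syn2*, each on the opposite strand. Whether strand was used when tag clusters were given to genes is not given in the sources used here. *Syn1* was at 294.94 and 361 CPM before SE and 271 and 311 CPM at 2 days, a logFC of -0.17 (limma adjusted p = 0.74). *Syn2* and *Syn3* were not called against pre-SE at either time, with logFC values of -0.47 and -0.64 at 6 h and of -0.64 and -0.08 at 2 days. No synapsin gene was thus called higher at either time.

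*Mmp2*, which encodes gelatinase A, was the least abundant member, at a mean of 3.21 CPM. It was at 1.24 and 5.47 CPM before SE, 1.25 and 3.84 CPM at 6 h, 2.59 and 1.90 CPM at 6 h with LEV, 3.65 and 3.39 CPM at 2 days, and 5.05 and 3.70 CPM at 2 days with LEV. In each of the 5 groups the mouse with more choroid plexus marker tags also had more *Mmp2*, and their part in its level was not tested. The 2 pre-SE mice spanned the whole range of the 10 libraries, the logFC against pre-SE being -0.24 (standard error 0.67, limma adjusted p = 0.88) at 6 h and 0.41 (standard error 0.67, limma adjusted p = 0.79) at 2 days. Without the 4 libraries over 500 CPM of choroid plexus markers, the logFC was 0.01 (limma adjusted p = 1.0) and 1.43 (limma adjusted p = 0.17).

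**Figure D2:**
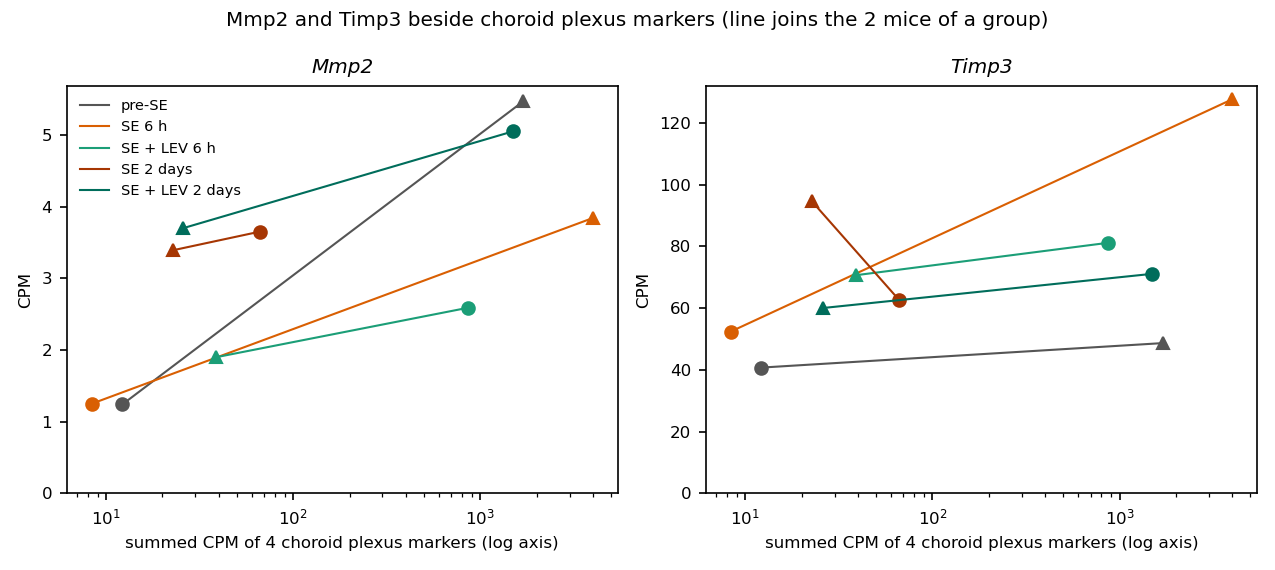
*Mmp2* and *Timp3* (CPM, vertical axes from 0) against the summed CPM of 4 choroid plexus markers (log axis) in each library, with circles for replicate 1, triangles for replicate 2 and a line between the 2 mice of a group. All 5 *Mmp2* lines rise to the right, as do those of *Timp3* except in SE 2 days mice, and the *Timp3* value of 128 CPM lies at 3990 CPM of the markers.

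*Mmp14* encodes MT1-MMP, a membrane protease that cuts collagen and activates the *Mmp2* product. It was at 12.5 and 18.0 CPM before SE, 13.1 and 16.7 CPM at 6 h, 18.0 and 11 CPM at 6 h with LEV, 21.3 and 29.4 CPM at 2 days, and 35.0 and 13.6 CPM at 2 days with LEV. Each SE 2 days mouse exceeded the pre-SE and the SE 6 h mice, whereas of the LEV-treated mice at 2 days 1 was above all other mice and 1 within the pre-SE range. The logFC against pre-SE was -0.02 (standard error 0.45, limma adjusted p = 0.99) at 6 h and 0.73 (standard error 0.45, limma adjusted p = 0.41) at 2 days.

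Of the 3 ADAMTS genes, *Adamts1* was the most abundant. It encodes a proteoglycanase of aggrecan and versican that also has anti-angiogenic activity. The gene (mm9 chromosome 16, 85794072 to 85803358, minus strand) overlaps no other annotated gene. The 150 bases before its RefSeq start (GRCm38.p6, chr16:85803114-85803263, minus strand) and before that of *Adamts9* (GRCm38.p6, chr6:92943535-92943684, minus strand) are shown since both rose at 6 h. Both are rich in G and C, at 69.3% and 71.3%, against 62.7% in the *Timp1* stretch, and held none of the motifs above.

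Adamts1 before the start: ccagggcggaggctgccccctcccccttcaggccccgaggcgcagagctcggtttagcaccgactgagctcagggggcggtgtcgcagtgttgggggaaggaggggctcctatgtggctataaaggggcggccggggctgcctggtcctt

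Adamts9 before the start: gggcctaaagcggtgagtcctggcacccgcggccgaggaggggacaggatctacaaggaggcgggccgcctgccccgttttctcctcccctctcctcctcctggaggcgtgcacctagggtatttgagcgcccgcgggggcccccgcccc

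*Adamts1* was at 13.0 and 17.7 CPM before SE, 64.9 and 82.9 CPM at 6 h, and 53.5 and 85.7 CPM at 2 days. In LEV-treated mice it was at 69.4 and 58.4 CPM at 6 h and at 47.8 and 20.4 CPM at 2 days. All 8 mice after SE lay above both pre-SE mice, and at 2 days both treated mice lay below both untreated ones. *Adamts1* rose 4.81-fold in mean CPM at 6 h (logFC 2.27, standard error 0.39, limma adjusted p = 0.014) and 4.53-fold at 2 days (logFC 2.15, standard error 0.39, limma adjusted p = 0.011).

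With LEV, the mean of *Adamts1* was 86.4% of that of SE mice at 6 h (logFC -0.20, standard error 0.39, limma adjusted p = 1.0) and 49.0% at 2 days. The latter, a logFC of -1.12 (standard error 0.39, unadjusted p = 0.017), was not called (limma adjusted p = 1.0). The LEV effects at the 2 times were not shown to differ, with a difference in logFC of -0.91 (standard error 0.56, limma adjusted p = 1.0). Against pre-SE, LEV-treated mice had a logFC of 2.06 at 6 h (limma adjusted p = 0.073) and 1.04 at 2 days (limma adjusted p = 0.32). The SE call at 6 h was kept in 17 of 21 alternatives. It was lost without pre-SE replicate 1, without either SE 6 h mouse and without the 4 libraries over 500 CPM of choroid plexus markers. The SE call at 2 days was kept in 18 of 21 and lost without pre-SE replicate 1, SE 2 days replicate 2 or those 4 libraries. With 1 mouse left out, the logFC ran from 2.04 to 2.49 at 6 h and from 1.81 to 2.49 at 2 days.

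*Adamts9*, whose product cuts versican and aggrecan and is made by vascular endothelium, was at 4.55 and 8.68 CPM before SE, 22.4 and 38.8 CPM at 6 h and 11.1 CPM in both SE 2 days mice. With LEV it was at 23.0 and 15.4 CPM at 6 h and at 11.98 and 9.98 CPM at 2 days. It was highest at 6 h, with and without LEV, and both mice of every group after SE were above both pre-SE mice. The gene (mm9 chromosome 6, 92722693 to 92893486, minus strand) overlaps *A730049H05Rik*, *Gm15737* and *9530026P05Rik*, all on the plus strand. The last of these spans its annotated start, and whether strand was used is not given, as for the TIMPs in synapsin genes. *Adamts9* rose 4.63-fold at 6 h (logFC 2.21, standard error 0.39, limma adjusted p = 0.015), whereas its logFC at 2 days was 0.81 (standard error 0.39, limma adjusted p = 0.29). The summed level of 6 endothelial markers was 73.6 and 76.0 CPM before SE and 114 and 175 CPM at 6 h. Among these markers *Cdh5* was called at 6 h (logFC 2.10, limma adjusted p = 0.0061). The other 5 were not called, *Pecam1*, *Flt1* and *Cldn5* with logFC values of 1.38, 1.35 and 0.75 and *Tek* and *Slco1a4* with values of -0.57 and -1.76, and the part of these cells in the rise of *Adamts9* was not tested. The call of *Adamts9* at 6 h was kept in 17 of 21 alternatives. It was lost with only SE 6 h and pre-SE mice fitted (limma adjusted p = 0.054). It was also lost without pre-SE replicate 1, SE 6 h replicate 2 or the 4 libraries over 500 CPM of choroid plexus markers. With 1 mouse left out, the logFC ran from 1.75 to 2.67.

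*Adamts4* encodes aggrecanase 1, which cuts aggrecan and brevican. It was at 23.4 and 9.38 CPM before SE, 34.6 and 36.7 CPM at 6 h, and 20.2 and 12.7 CPM at 6 h with LEV. At 2 days it was at 8.44 and 12.6 CPM in SE mice and at 8.46 and 11.8 CPM in LEV-treated mice. The SE 6 h mice were thus the highest of all, and pre-SE mice differed 2.49-fold from each other.

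Against pre-SE the logFC of *Adamts4* at 6 h was 1.26 (standard error 0.43, unadjusted p = 0.015) and was not called (limma adjusted p = 0.17). From 6 h to 2 days it fell by 1.78 on the log2 scale (standard error 0.43, limma adjusted p = 0.049), to 29.4% of its mean level, a call close to the threshold that was kept in 9 of 21 alternatives. In SE + LEV 6 h mice the mean was 46.2% of that of SE 6 h mice, a logFC of -1.15 (standard error 0.43, unadjusted p = 0.024, limma adjusted p = 0.96). *Adamts4* is also expressed by oligodendrocytes. The summed level of their 5 markers was 4830 and 5250 CPM before SE, 3310 and 6380 CPM at 6 h and 1680 and 2600 CPM at 2 days. With LEV it was 5380 and 4110 CPM at 6 h and 3110 and 4490 CPM at 2 days. The part of these cells in the fall of *Adamts4* was not tested.

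**Figure D3:**
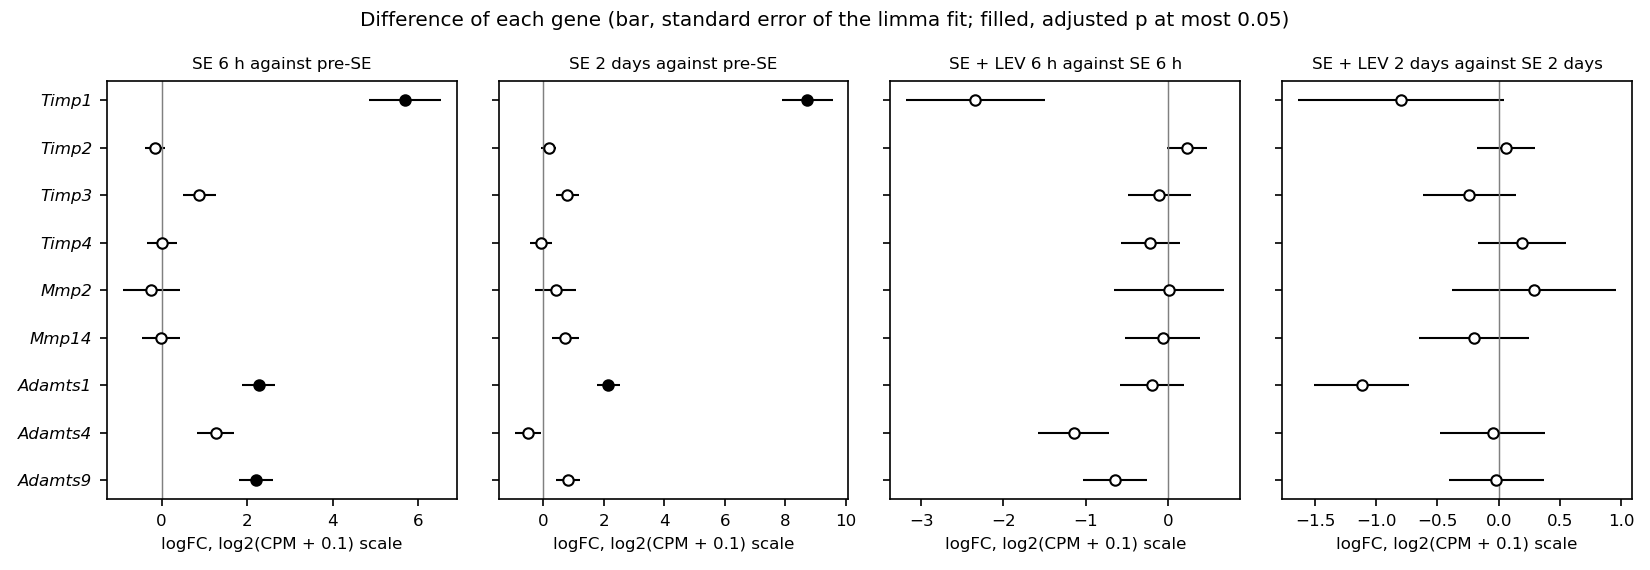
Difference of each of the 9 genes in 4 comparisons (logFC on the log2(CPM + 0.1) scale, with the standard error of the limma fit), with filled circles for an adjusted p of at most 0.05. *Timp1*, *Adamts1* and *Adamts9* are filled at 6 h, *Timp1* and *Adamts1* at 2 days, and no gene is filled in the comparisons of LEV-treated with untreated mice.

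In all, 3 of the 9 genes were called higher in SE 6 h mice than in pre-SE mice, where 2.76% of all genes tested were called higher, and 0 were called lower (0.202% of all genes). At 2 days 2 were called higher (5.07% of all genes) and 0 lower (0.593%). Between these times, 1 gene, *Adamts4*, was called lower at 2 days (1.11% of all genes) and 0 higher (3.14%). Against pre-SE, limma called 0 of the 9 at 6 h with LEV (0.315% of all genes were called higher and 0.00631% lower), where 3 had an unadjusted p under 0.05, all higher, and 1, *Timp1*, in SE + LEV 2 days mice (2.83% higher). Both mice lay above both pre-SE mice for 5 of the 9 genes at 6 h (18.6% of all genes), 5 at 2 days (26.3%), 4 at 6 h with LEV (17.0%) and 4 at 2 days with LEV (22.6%). Both lay below for 1 gene, *Timp2*, at 6 h (31.3% of all genes). From 6 h to 2 days both mice were higher for 3 genes (31.0% of all genes) and lower for 2 (20.1%). Without the 4 libraries over 500 CPM of choroid plexus markers, 0 were called at 6 h and 1, *Timp1*, at 2 days, while the logFC values of *Timp1*, *Adamts1* and *Adamts9* at 6 h were 5.79, 2.31 and 2.28. The list was chosen with these comparisons in view, so nothing is read from these counts.

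Between LEV-treated and untreated mice limma called 0 of the 9 genes at either time, where the calls of lower level made up 0.0126% of all genes at 6 h and 0% at 2 days. At an unadjusted p under 0.05, for which the share of all genes was not determined, *Timp1* and *Adamts4* were lower at 6 h. *Adamts1* was lower at 2 days and no member was higher. Both treated mice lay below both untreated mice for *Timp1* and *Adamts4* at 6 h, as for 13.4% of all genes. The same held for *Adamts1* at 2 days, as for 12.2% of all genes. Both lay above both untreated mice for *Timp2* at 6 h, as for 16.1% of all genes, and for *Mmp2* at 2 days, as for 15.2%. The difference between the LEV effects at 2 days and 6 h was called for 0 of the 9 genes, also at an unadjusted p under 0.05, and for 0% of all genes. The comparisons with pre-SE share the pre-SE mice, and those with LEV share the SE mice, so they are not independent of each other.

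The balance of inhibitors and proteases was described by the summed CPM of the 4 TIMPs and of the 5 proteases in each mouse. These sums count RNA tags and do not measure inhibition, since not every TIMP inhibits every protease. Before SE, TIMP tags made up 86.8% and 86.5% of the sum over the 9 genes. This inhibitor share was 72.5% and 71.4% at 6 h and 75.3% and 80.4% at 6 h with LEV. It was 80.9% and 84.1% at 2 days and 86.6% and 87.0% at 2 days with LEV. Both SE 6 h mice had the lowest shares of the 10, and the LEV-treated mice at 2 days lay at or above the pre-SE level.

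Written as a ratio, there were 6.56 and 6.39 TIMP tags per protease tag in pre-SE mice, 2.64 and 2.50 at 6 h, and 4.24 and 5.29 at 2 days. The ratio was 3.05 and 4.10 at 6 h with LEV and 6.46 and 6.71 at 2 days with LEV. The groups of treated and untreated mice thus did not overlap at either time. Without *Timp2* they overlapped at both, the inhibitor shares being 48.9% and 55.5% at 6 h against 54.0% and 55.9% with LEV, and 63.7% and 74.7% at 2 days against 76.4% and 71.0% with LEV. No test was made on these sums, since their members were chosen with results known.

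The sums of the 3 classes moved differently. Their MMP and ADAMTS members were chosen with results known, so the contrast describes these genes and not the whole families. The sum of the TIMPs was 358 and 379 CPM before SE and 359 and 447 CPM at 6 h, whereas it was 415 and 752 CPM at 2 days and 700 and 399 CPM at 2 days with LEV. The sum of the 3 ADAMTS genes was 40.9 and 35.8 CPM before SE, 122 and 158 CPM at 6 h, 113 and 86.4 CPM at 6 h with LEV, 73.0 and 109 CPM at 2 days, and 68.2 and 42.1 CPM at 2 days with LEV. *Mmp2* and *Mmp14* together stayed between 12.9 and 40 CPM in every mouse. At 6 h the lower inhibitor share of these members went with more tags of the 3 ADAMTS genes and not with fewer TIMP tags.

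The make-up of the TIMP tags changed as well. *Timp2* held 65.2% and 70.9% of them in pre-SE mice and 58.6% and 44.3% at 2 days. *Timp1* held 0.0474% and 0.0502% before SE, 4.11% and 3.10% at 6 h and 14.4% and 30.8% at 2 days. With LEV, *Timp1* held 0.474% and 0.955% at 6 h and 25.9% and 6.27% at 2 days. For each ADAMTS tag there were 1.0 to 1.36 *Timp3* tags in pre-SE mice, 0.43 to 0.81 at 6 h, 0.72 to 0.82 at 6 h with LEV, 0.86 to 0.87 at 2 days and 1.04 to 1.43 at 2 days with LEV.

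The inhibitor share depended on which genes were summed. Over every tested gene of these families, 4 TIMPs, 11 MMPs and 15 ADAMTS genes, it was 43.5% and 52.5% before SE, 43.0% and 48.8% at 6 h, and 53.3% and 65.5% at 2 days, so that pre-SE and SE 6 h mice overlapped. Treated and untreated mice overlapped as well, with shares of 46.2% and 42.4% at 6 h with LEV and 65.5% and 42.6% at 2 days with LEV. The MMP sum then ran from 234 to 430 CPM and was led by *Mmp17* in 9 of 10 mice and by *Mmp16* in 1, genes of membrane-type MMPs that were not called in any comparison with pre-SE. *Mmp17* alone differed between mice of a group by up to 271 against 83.3 CPM. The ADAMTS sum over 15 genes was 99.9 and 108 CPM before SE, 181 and 216 CPM at 6 h and 128 and 150 CPM at 2 days. With LEV it was 177 and 154 CPM at 6 h, and at 2 days 123 and 107 CPM, which overlapped pre-SE. The 3 ADAMTS members, chosen with results known, made up 40.9 and 35.8 CPM of it before SE. They made up 122 and 158 CPM at 6 h and 73.0 and 109 CPM at 2 days. The sum thus shows no rise of the other ADAMTS genes.

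**Figure D4:**
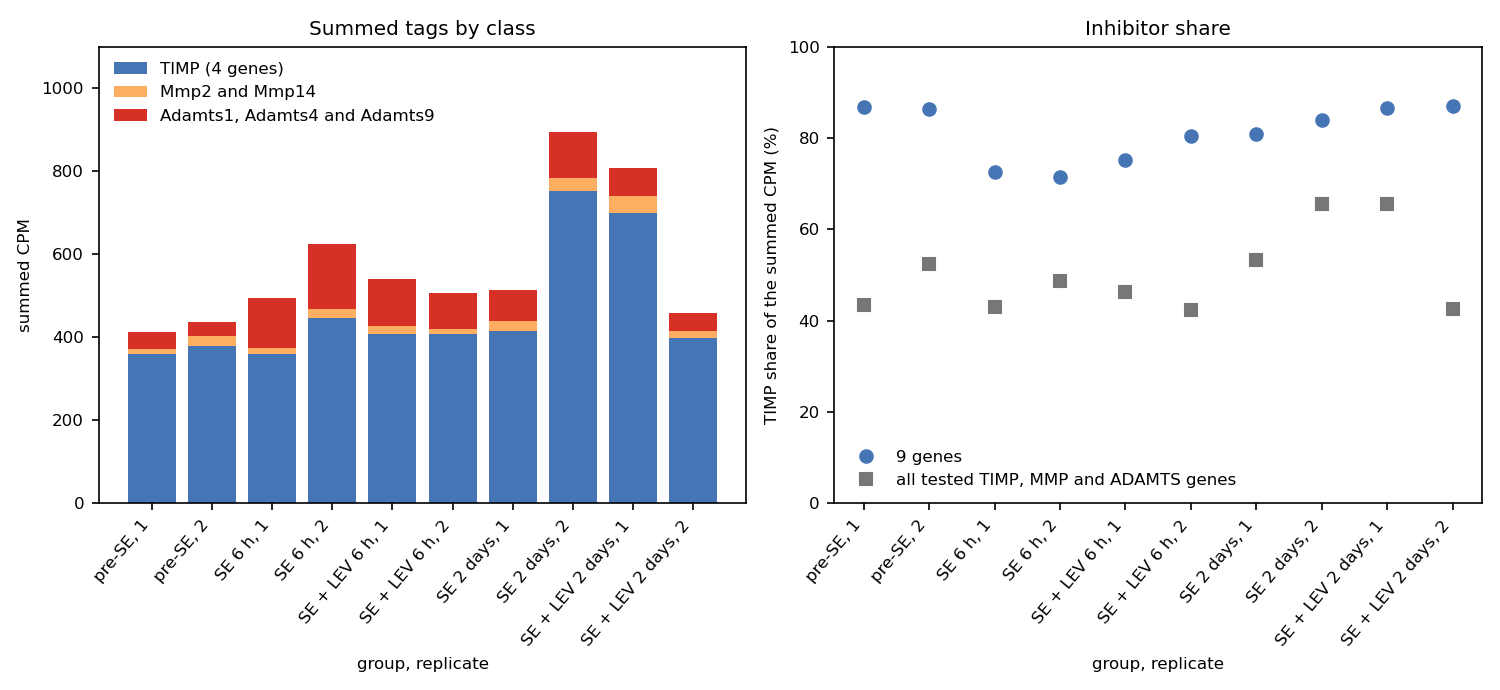
Left, summed CPM of the 4 TIMPs, of *Mmp2* with *Mmp14* and of the 3 ADAMTS genes in each mouse, as stacked bars from 0. Right, the share of TIMP tags in percent over the 9 genes (circles), lowest in SE 6 h mice at 72.5% and 71.4%, and over all tested TIMP, MMP and ADAMTS genes (squares), where pre-SE and SE 6 h mice overlap.

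Among the other 26 MMP, ADAMTS and ADAMTS-like genes tested, 4 were called higher (5.07% of all genes) and 0 lower (0.593%) at 2 days. At 6 h, where 2.76% of all genes were called higher and 0.202% lower, limma called 0 of them. An unadjusted p under 0.05 was found for 7, 4 of them higher, and the share of all genes under this cut was not determined. The median logFC of the 26 was -0.16 at 6 h and 0.09 at 2 days, beside -0.13 and -0.03 over all genes. The called genes were the stromelysin gene *Mmp3*, the macrophage elastase gene *Mmp12*, *Mmp19* and *Adamtsl3*. The stretches of 60 bases before the RefSeq starts of *Mmp3* (GRCm38.p6, chr9:7445762-7445821, plus strand) and *Mmp12* (GRCm38.p6, chr9:7347314-7347373, plus strand) are shown because they hold the AP-1 motif, in capitals, which begins 46 and 44 bases before the start. Of the 17 genes of this wider list with a promoter in the table, these were the 2 that held the motif, beside 7.81% of all windows. The start of *Mmp12* shown here lies downstream of the other listed start, which did not hold the motif.

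Mmp3: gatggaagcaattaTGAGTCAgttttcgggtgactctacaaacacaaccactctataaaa

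Mmp12: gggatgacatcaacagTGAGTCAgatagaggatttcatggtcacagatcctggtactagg

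*Mmp3* had 0 and 2 tags in the 2 pre-SE mice and was at 0.42 and 0.82 CPM at 6 h and 2.80 and 1.29 CPM at 2 days. Its logFC at 2 days was 4.08 (standard error 0.81, limma adjusted p = 0.016), at least 19.8-fold higher than the level of 3 tags in the pre-SE libraries. With LEV it was at 0.10 and 1.14 CPM at 6 h and at 1.17 and 0.45 CPM at 2 days.

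*Mmp12* was at 0.24 and 0 CPM before SE (7 and 0 tags), 3.01 and 1.99 CPM at 6 h and 23.5 and 3.87 CPM at 2 days. With LEV it was at 0.07 and 0.09 CPM at 6 h, from 2 tags and 1 tag, and at 5.72 and 1.52 CPM at 2 days. *Mmp12* rose at 2 days (logFC 5.71, standard error 0.89, limma adjusted p = 0.0050), and its logFC at 6 h was 3.79 (limma adjusted p = 0.052). It was also called in SE + LEV 2 days mice against pre-SE (logFC 4.06, limma adjusted p = 0.038). The treated mice at 6 h had no more tags than the detection limit and lay below both SE 6 h mice, but the logFC of -3.83 (standard error 0.89, unadjusted p = 0.0015) was not called (limma adjusted p = 0.36). The 6 microglia markers summed to 362 and 431 CPM before SE, 285 and 264 CPM at 6 h and 844 and 996 CPM at 2 days, and their part in *Mmp12* was not tested.

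*Mmp19* was at 0.41 and 0.31 CPM before SE, 0.77 and 1.23 CPM at 6 h and 6.95 and 9.46 CPM at 2 days. With LEV at 2 days it was at 10.7 and 3.08 CPM. It rose at 2 days against pre-SE (logFC 4.17, standard error 0.59, limma adjusted p = 0.0032) and against 6 h (logFC 2.93, standard error 0.59, limma adjusted p = 0.023), and was also called in SE + LEV 2 days mice against pre-SE (logFC 3.68, limma adjusted p = 0.0087). *Adamtsl3*, a secreted ADAMTS-like protein without protease domain, went from 0.21 and 0.44 CPM to 1.70 and 2.63 CPM at 2 days (logFC 2.44, standard error 0.52, limma adjusted p = 0.024).

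Of 16 genes that regulate metalloproteinases or belong to the ADAM sheddases, 3 were called higher at 6 h (2.76% of all genes), 4 at 2 days (5.07% of all genes) and 0 lower at either time (0.202% and 0.593% of all genes). *Lcn2*, whose product binds and stabilizes the gelatinase from *Mmp9*, went from 0.24 and 0.27 CPM to 9.81 and 14.7 CPM at 6 h (logFC 5.09, limma adjusted p = 0.012) and 20.6 and 30.1 CPM at 2 days (logFC 6.14, limma adjusted p = 0.0030). It was at 76.1 and 8.16 CPM at 6 h with LEV, where it was called against pre-SE as well (logFC 6.14, limma adjusted p = 0.019). *Furin*, a proprotein convertase that activates *Mmp14* and ADAMTS products, rose at 6 h (logFC 1.73, limma adjusted p = 0.034).

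*Thbs1*, the secreted thrombospondin 1, was at 0.76 and 1.59 CPM before SE and 37.2 and 36.9 CPM at 6 h (logFC 4.95, limma adjusted p = 0.035), against 8.24 and 4.55 CPM at 6 h with LEV. At 2 days *Cd44*, a hyaluronan receptor to which MMPs can bind, rose (logFC 5.18, limma adjusted p = 0.0020), as did the sheddase gene *Adam8* (logFC 6.11, limma adjusted p = 0.012, at least 107-fold above 3 tags in the pre-SE libraries) and *Adam12* (logFC 1.54, limma adjusted p = 0.041). The membrane-bound inhibitor *Reck* and the constitutive sheddases *Adam10* and *Adam17* were not called, with logFC values at 2 days of -0.16, -0.08 and 0.55.

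Of 19 matrix substrates and net components tested, out of 21 listed, 2 were called higher at each time, beside 2.76% of all genes at 6 h and 5.07% at 2 days, and 0 lower. *Acan*, which encodes aggrecan, was at 2.10 and 3.06 CPM before SE, 30.2 and 35.8 CPM at 6 h and 14.0 and 63.9 CPM at 2 days. The gene for this main substrate of the ADAMTS aggrecanases thus rose together with *Adamts1*, the logFC being 3.64 (standard error 0.66, limma adjusted p = 0.017) at 6 h and 3.51 (standard error 0.66, limma adjusted p = 0.013) at 2 days. The brevican gene *Bcan* went the other way without a call, from 129 and 109 CPM before SE to 83.7 and 93.7 CPM at 6 h and 51.1 and 22.4 CPM at 2 days. Of the 19 genes, the logFC was above 0 for 11 and below 0 for 8 at 6 h, and for 13 and 6 at 2 days. Over all genes tested, 60.0% had a logFC below 0 at 6 h and 52.7% at 2 days. *Col4a1*, a collagen of the basement membrane, was at 26.8 and 35.3 CPM before SE and rose to 104 and 140 CPM at 6 h (logFC 1.97, limma adjusted p = 0.027) and 64.2 and 143 CPM at 2 days (logFC 1.64, limma adjusted p = 0.040). In LEV-treated mice *Acan* was at 28.4 and 18.5 CPM at 6 h and at 16.8 and 5.83 CPM at 2 days. Between LEV-treated and untreated mice limma called 0 of the genes of all 3 wider lists at either time. An unadjusted p under 0.05 went with 3 lower genes and 1 higher gene at 6 h and with 3 lower genes at 2 days. The share of all genes under this unadjusted cut was not determined, so nothing is read from these counts.

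**Figure D5:**
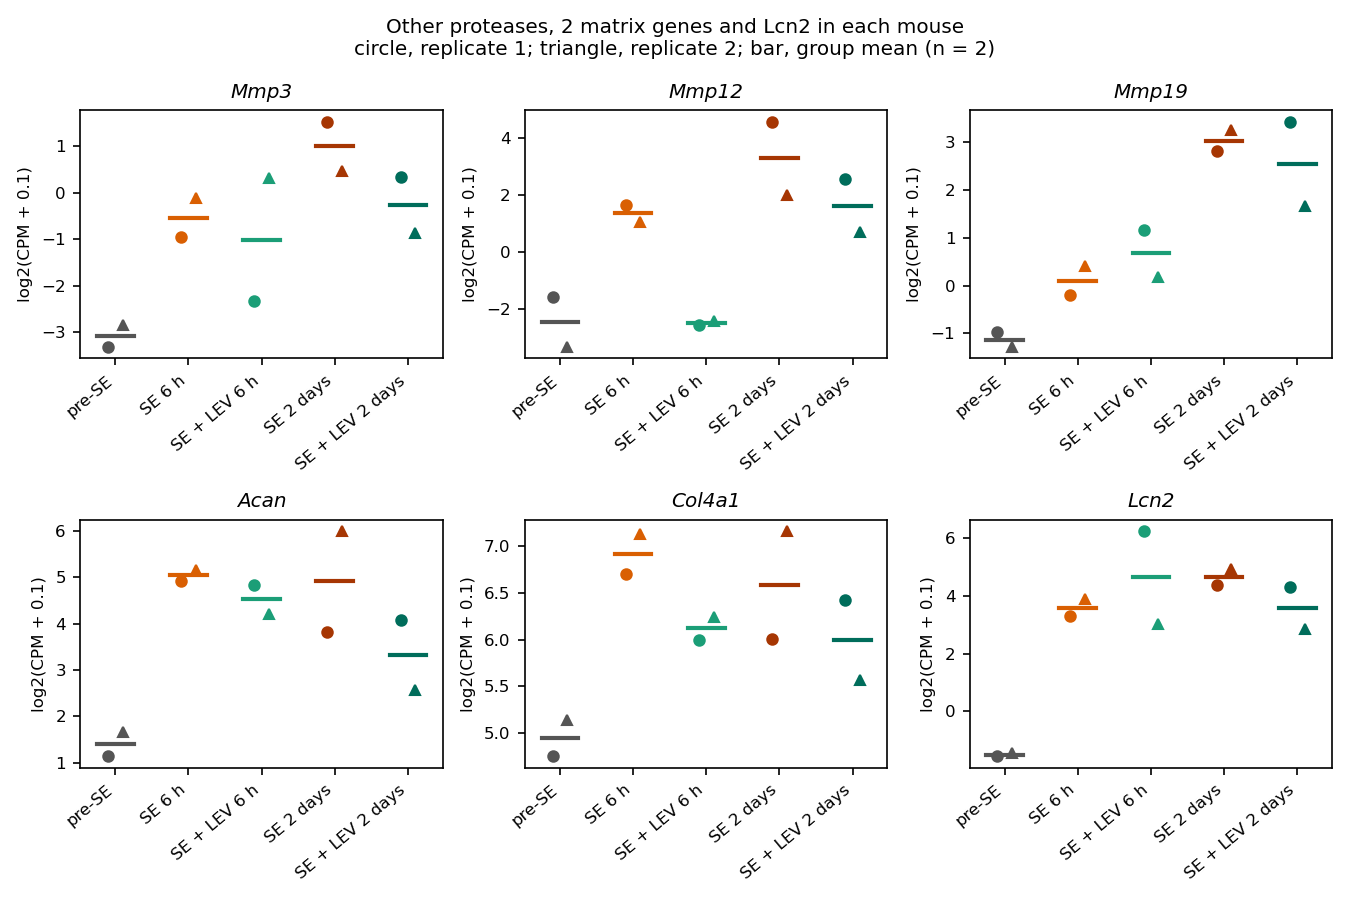
Level of 3 further MMP genes, the substrate genes *Acan* and *Col4a1*, and *Lcn2* in each mouse, as log2(CPM + 0.1), with circles for replicate 1, triangles for replicate 2 and bars for the mean of the 2 mice. The 3 MMP genes are highest at 2 days without LEV or, in 1 mouse, with LEV for *Mmp19*, and *Mmp12* is near its pre-SE level in both SE + LEV 6 h mice.

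The genes most like each member were those with the highest Pearson r of log2(CPM + 0.1) over the 10 libraries, which share their groups and depth. For *Timp1* they were *Pros1* (r = 0.985), *Clcf1* (r = 0.977) and the receptor gene *Tlr2* (r = 0.975). For *Adamts1* they were *Dyrk3* (r = 0.987), *Acan* (r = 0.978) and *Nedd9* (r = 0.978), and for *Adamts9* they were *Irs2* (r = 0.974), the angiopoietin gene *Angpt2* (r = 0.974) and *Arrdc4* (r = 0.971). Each r is the highest among all genes compared. Members without a call also had close matches, such as *Mmp14* with *Pqlc3* (r = 0.955) and *Timp4* with *H2-T22* (r = 0.932). Among the members themselves the closest pairs were *Adamts1* with *Adamts9* and *Timp3* with *Adamts1* (both r = 0.79), and *Adamts4* ran against *Timp2* (r = -0.65) and *Mmp2* (r = -0.61).

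Beside the differences at 2 days, the summed level of 6 astrocyte markers went from 2440 and 2300 CPM before SE to 3510 and 4940 CPM at 2 days, with *Gfap* (logFC 3.60, limma adjusted p = 0.00095) and *Aqp4* (logFC 1.57, limma adjusted p = 0.011) called. The mean level of *Gfap* alone went from 238 to 2960 CPM, whereas *Slc1a2*, *Slc1a3* and *Gja1* had logFC values of -0.93, -0.73 and -0.98 and were not called. The 4 of 8 leukocyte markers in the table summed to 2.56 and 3.24 CPM before SE, 10.7 and 8.90 CPM at 6 h and 16.0 and 18.6 CPM at 2 days. From 6 h to 2 days only *Ptprc* rose among them, from a mean of 3.35 to 14.3 CPM. The means of *S100a8*, *S100a9* and *Mpo* went down, from 1.92 to 1.47, from 2.27 to 1.40 and from 2.28 to 0.16 CPM. Mural cell and fibroblast markers, 7 genes, ran from 116 to 226 CPM over all mice. The part of these cells in the values of *Timp1*, *Adamts1* and *Mmp19* was not tested.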

How the data were processed

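CAGE libraries of 10 hippocampi were used. The authors mapped tags to mm9 with BWA 0.7.17 and HISAT2 2.0.5, formed clusters with the RECLU pipeline, kept those of 0.1 CPM or more, used bedtools 2.12.0 and edgeR 3.22.5, and deposited CPM values for each gene and mouse. How clusters were summed to genes, and sequencing batches, are not given in the sources used here. The total of tags in each library was found from the value of 1 tag and used for depth and the detection limit of 3 tags only. Gene positions came from GENCODE vM1 (mm9), where all 15900 genes were matched, and promoters from RefSeq (GRCm38.p6).

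Differences were tested on log2(CPM + 0.1) with limma 3.58.1 (R 4.3.3), with 5 group means, a mean-variance trend and two-sided tests. The fit and the depth were tested on simulated data. Sums were made and plotted in Python 3.11.15 with pandas 2.3.3, numpy 2.4.6 and matplotlib 3.10.9.

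The members and lists were chosen with earlier results of these data known. Besides all members, genes of 3 wider lists (other family genes, regulators and sheddases, matrix substrates) were named when called, at most 5 in each list and direction, with *Reck*, *Adam10*, *Adam17* and the synapsin genes. The 3 most similar genes were found for every member with a mean of at least 1 CPM. A further 21 alternatives were fitted: 8 other settings, 10 with a mouse left out, and 3 added after the data were seen, with choroid plexus markers as a covariate, without the 4 libraries over 500 CPM of these markers, and with replicate numbers crossed. The shares without *Timp1* and over whole families and the motif TGAGTAA were also chosen after seeing the data.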

Additional observations from a re-analysis of the deposited data

How the results depend on the processing

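For the 9 genes in 8 comparisons, 72 differences were refitted under 21 alternatives. Of the 1512 values, 1470 stayed on their side of the threshold, 29 lost a call and 13 gained one. The sign changed in 85, and none of these was called before or after the change. With 1 mouse left out, the number of members called ran from 0 to 3 for SE 6 h against pre-SE (0 without SE 6 h replicate 2, and 1 without SE 6 h replicate 1 or pre-SE replicate 1), from 1 to 2 for SE 2 days against pre-SE (1 without pre-SE replicate 1 or SE 2 days replicate 2), from 0 to 2 for SE + LEV 6 h against pre-SE (2 without either SE + LEV 2 days mouse), from 1 to 2 for SE + LEV 2 days against pre-SE (2 without SE + LEV 2 days replicate 2) and from 0 to 2 for SE 2 days against SE 6 h (2 without either SE + LEV 2 days mouse). For SE 2 days against SE 6 h the count was 0 with pseudocounts of 0.5 and 1, no filter, no trend and the replicate block, and 2 with only the groups compared, which gave 0 for SE + LEV 2 days against pre-SE. Same-numbered mice are different animals, and nothing in the labels pairs them. Their deviations correlated between -0.46 and 0.38 across groups, which cannot exclude a batch tied to the replicate number. The replicate block changed no other count of members. With the numbers of SE + LEV 2 days crossed, the count was 2 for SE 2 days against SE 6 h and 1 for SE + LEV 6 h against pre-SE. With choroid plexus markers as a covariate it was 2 in both. Without the 4 libraries over 500 CPM of these markers, which left a single residual degree of freedom, it was 0 for SE 6 h and SE + LEV 2 days against pre-SE, 1 for SE 2 days against pre-SE and 0 for SE 2 days against SE 6 h. A lone mouse was assumed to vary like the other groups. Without *Timp2*, where treated and untreated mice overlapped at both times, the mean inhibitor share was 67.3% before SE, 52.2% at 6 h (55.0% with LEV) and 69.2% at 2 days (73.7% with LEV). Over all tested family genes it was 48.0% before SE, 45.9% at 6 h (44.3% with LEV) and 59.4% at 2 days (54.0% with LEV). Without *Timp1* it was 78.5% in SE 2 days and 84.5% in SE + LEV 2 days mice. With median-of-ratios rescaling the TIMP sum of SE + LEV 6 h mice was 414.8 CPM, against 407.3 CPM. The causes of these changes were not tested. Count-based tests on the tags had been planned as alternatives and were not run. Depth limits the genes with few tags, *Timp1* before SE, *Mmp3* and *Mmp12*.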
